A study of Homo sapiens with 2 samples.

Results

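Divergent promoters are stretches of DNA from which a pair of genes is transcribed in opposite directions. They were taken here as pairs of GENCODE 44 protein-coding genes on opposite strands, head to head, whose start sites (MANE Select transcript, or else the canonical one) lie at most 1000 bp apart on chromosomes 1 to 22. The rule gave 957 pairs, which hold 1842 of 19111 autosomal protein-coding genes (9.64%). They have 946 distinct sets of start coordinates and 1831 distinct starts, and 71 genes belong to more than 1 pair. Pairs with several partners share sequence and are not independent. Another 55 pairs, whose starts lie in the reverse order so that their 5' ends overlap, were not members. The starts of a pair were a median of 233 bp apart, with quartiles of 121 and 400 bp, and 601 of the 946 pairs were at most 300 bp apart. The reference set was 16253 autosomal starts with no protein-coding start on the opposite strand within 5 kb, called isolated starts.

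The data are 1 list of nucleosome positions from interphase ARPE-19, an established human line of retinal pigment epithelium, grown in normal culture without any added treatment. MNase-seq cuts linker DNA with micrococcal nuclease and sequences the fragments that nucleosomes protect; the digestion lasted 5 min at 37 °C and fragments near 150 bp were recovered from a gel. The labels name 2 batches of the same condition, which the list does not tell apart, so no replicate spread and no read depth is known. No RNA data were analysed here, so the cell type and the activity of each gene could not be checked.

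At most active promoters, the DNA just upstream of the start is kept free of nucleosomes by bound factors and the transcription machinery. The first nucleosome downstream, called +1, is placed at a fixed distance from the start, and the following nucleosomes are spaced from it. At a divergent promoter, each gene has its own +1 nucleosome, and what lies between the starts serves both genes. Such promoters are common among housekeeping genes of mitochondria and DNA repair, and many lie in CpG islands, stretches rich in unmethylated CpG.

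Autosomes held 2558490 positions, or 0.928 per kb. Densities are given as positions per kb of determined sequence, with exact 95% Poisson intervals where an interval is stated, and shares with 95% Wilson intervals. Both cover counting error only. Each comparison of 2 groups of starts was made chromosome by chromosome (22 of them), and the signs of the 22 differences were permuted in 100000 draws (sign-flip permutation test, two-sided), whose smallest p is 1e-05. The densities and shares of a set are pooled over chromosomes. A stated difference or excess is the unweighted mean of the differences per chromosome, so it can depart from that of the pooled values. Adjusted values (Benjamini-Hochberg) of the main results cover 9 tests. Each alternative was adjusted over the results computed for it, 9 or fewer, so ranges of adjusted values over alternatives mix numbers of tests. Chromosomes are not biological replicates, so SD and p speak of evenness across the genome within 1 list, not of other cultures. Classes of distance between starts leave out their lower limit and hold their upper one.

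To show what a shared gap looks like, the DNA from one start to the other is printed for 6 pairs that had a position 75 to 200 bp downstream of both starts and none between. They were taken by a fixed order from 50 such pairs with starts 100 to 300 bp apart. SARS2/MRPS12 (mitochondrial seryl-tRNA synthetase and a mitochondrial ribosomal protein) lies at chr19:38930763-38930944, and CYB5RL/MRPL37 (a reductase-like protein and a mitochondrial ribosomal protein) at chr1:54200030-54200167. RAD1/BRIX1 (a DNA damage checkpoint clamp subunit and a ribosome biogenesis factor) lies at chr5:34915504-34915711, and MRPS27/PTCD2 (both mitochondrial) at chr5:72320240-72320373. RARS2/ORC3 (mitochondrial arginyl-tRNA synthetase and a subunit of the origin recognition complex) lies at chr6:87589987-87590135, and PSMA2/MRPL32 (a proteasome subunit and a mitochondrial ribosomal protein) at chr7:42932174-42932376. The sequence is the plus strand of hg38, 5' to 3'. The first base is the start of the first-named, minus-strand gene and the last base that of the second. Capitals mark matches, on either strand, to the CCAAT box (motif CCAAT), the GC box (motif GGGCGG), the TATA box (motif TATAAA) or the 4 longer factor motifs spelled out further on.
SARS2/MRPS12: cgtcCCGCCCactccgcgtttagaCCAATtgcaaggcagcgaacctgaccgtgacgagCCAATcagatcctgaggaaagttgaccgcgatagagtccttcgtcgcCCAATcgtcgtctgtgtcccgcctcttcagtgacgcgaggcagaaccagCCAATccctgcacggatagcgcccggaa
CYB5RL/MRPL37: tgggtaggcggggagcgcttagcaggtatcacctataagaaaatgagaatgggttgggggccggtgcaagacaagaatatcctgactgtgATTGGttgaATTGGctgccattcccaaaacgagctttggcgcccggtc
RAD1/BRIX1: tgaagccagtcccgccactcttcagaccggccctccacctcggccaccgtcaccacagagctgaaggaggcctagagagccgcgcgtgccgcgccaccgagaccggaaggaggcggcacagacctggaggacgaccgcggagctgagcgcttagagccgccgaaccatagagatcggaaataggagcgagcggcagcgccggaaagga
MRPS27/PTCD2: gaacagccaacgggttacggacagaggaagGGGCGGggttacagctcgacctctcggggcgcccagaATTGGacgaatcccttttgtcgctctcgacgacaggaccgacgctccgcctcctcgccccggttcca
RARS2/ORC3: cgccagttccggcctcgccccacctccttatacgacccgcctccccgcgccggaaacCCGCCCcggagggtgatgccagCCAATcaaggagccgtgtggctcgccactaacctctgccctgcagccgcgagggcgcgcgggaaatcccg
PSMA2/MRPL32: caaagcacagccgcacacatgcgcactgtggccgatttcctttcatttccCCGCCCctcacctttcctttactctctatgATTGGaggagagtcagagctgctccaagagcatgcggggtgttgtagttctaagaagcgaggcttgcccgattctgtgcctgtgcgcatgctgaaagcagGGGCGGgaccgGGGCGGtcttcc
SARS2/MRPS12 had 5 matches, 4 of them CCAAT, and RAD1/BRIX1 had none. The nearest positions lay 119 bp into SARS2 and 102 bp into MRPS12, so the stretch without a position measured 402 bp. At the other 5 pairs it measured 398 bp (CYB5RL/MRPL37), 439 bp (RAD1/BRIX1), 420 bp (MRPS27/PTCD2), 425 bp (RARS2/ORC3) and 469 bp (PSMA2/MRPL32). The start-to-start distances of these pairs were between 133 and 207 bp.

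The gap between the starts was nearly empty at short distances, and positions became common in it once the starts were more than 250 bp apart. None of the 317 pairs up to 150 bp apart had a position between the starts, in 28.9 kb of sequence. Pairs 150 to 200 bp apart had 2 positions at 90 pairs, those 200 to 250 bp apart had 3 at 104, and those 250 to 300 bp apart had 12 at 90. Density between the starts was then 0.484 per kb (0.250 to 0.845). It was 0.900 per kb (0.623 to 1.26) at 300 to 400 bp and between 0.861 and 0.879 per kb in the 3 wider classes, close to the 0.928 per kb of the autosomes. Divided by the density expected from GC content, it was 0.687 observed over expected at pairs more than 300 bp apart, below that expectation.

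Pairs more than 300 bp apart had 164 positions in 187 kb between their starts, or 0.878 per kb, against 17 in 92.9 kb, or 0.183 per kb, at pairs up to 300 bp. The difference was 0.690 per kb ± 0.551 (SD, n = 22 chromosomes), higher on 20 and lower on 2 (permutation p = 4e-05, adjusted 0.000120). No position lay between the starts at 584 of 601 short pairs, 97.2% (95.5 to 98.2%), and at 204 of 345 long pairs, 59.1% (53.9 to 64.2%). The density of a short interval is still tied to its length, since every base of it lies close to a start.

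**Figure D1:**
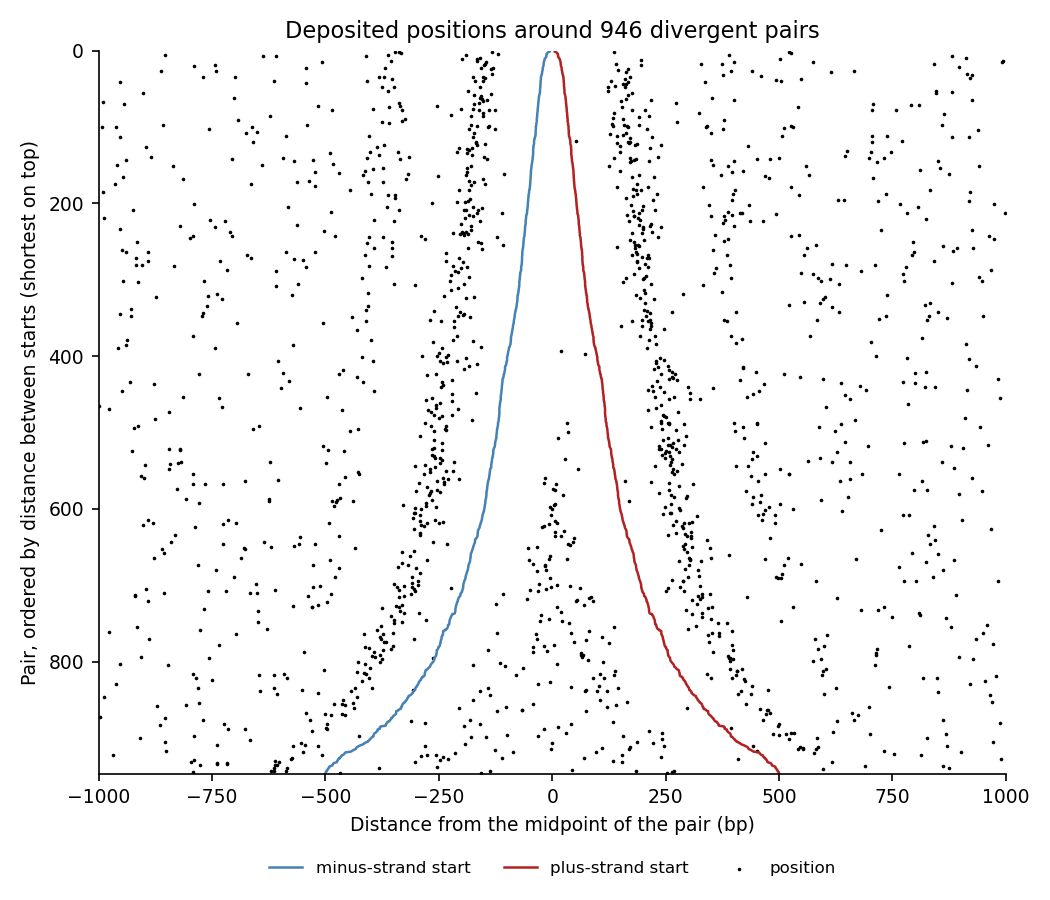
Each row is 1 of 946 divergent pairs, ordered from the shortest to the longest distance between starts; the x axis is the distance from the pair's midpoint in bp, black dots are deposited positions, and the lines mark the minus-strand and plus-strand start. Bands of positions run just outside both lines at all distances, and a band at the midpoint begins at pairs about 250 bp apart.

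Where positions became common between the starts, they lay near the middle. The few at pairs up to 250 bp apart are not part of these counts. A position that keeps clear of both starts of a close pair can only lie near its middle. Nearness to the midpoint is therefore not a result separate from the distance to the starts, given below. At pairs 250 to 300 bp apart, 12 pairs had 1 position each, a median of 7.25 bp from the midpoint, and 11 of the 12 were within 50 bp of it. At 300 to 400 bp, 31 of 34 positions were within 50 bp of the midpoint, with a median of 20.5 bp. At 400 to 500 bp the median was 53.0 bp (13 of 28 within 50 bp), and at 500 to 700 bp it was 102 bp (8 of 46). Pairs with 2 positions between the starts numbered 1 at 300 to 400 bp, 2 at 400 to 500 bp, 7 at 500 to 700 bp and 9 at 700 to 1000 bp, where another 2 pairs had 3.

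Measured from the nearer start, these positions kept clear of the first 100 bp. At pairs 300 to 500 bp apart, 59 of 62 positions were at least 100 bp from the nearer start, and the 50 bp next to a start held 0 positions in 17.9 kb, which allows up to 0.206 per kb. Density there was 2.27 per kb (1.52 to 3.26) at 150 to 200 bp from the nearer start. It was 2.18 per kb (0.942 to 4.30) at 200 to 250 bp, in only 3.67 kb. At pairs 500 to 1000 bp apart it was 1.57 per kb (1.02 to 2.29) and 1.69 per kb (1.12 to 2.44) in the same 2 bins. The intervals of the 2 bins overlapped in both classes, so no single maximum is shown. At the wider pairs, 96 of 102 positions were at least 100 bp away.

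**Figure D2:**
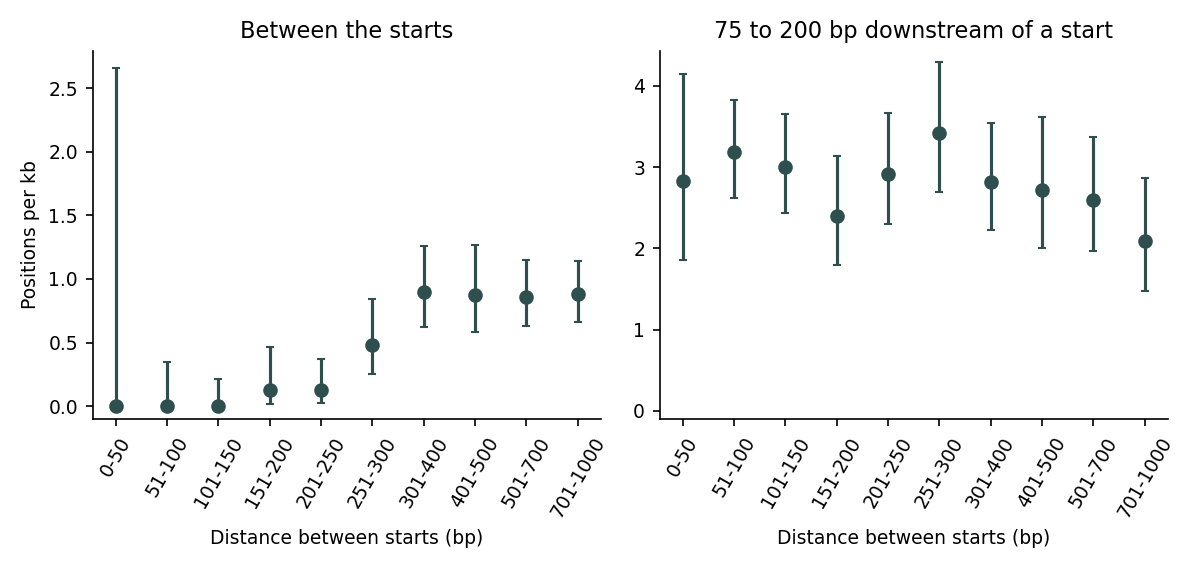
Positions per kb between the starts (left) and 75 to 200 bp downstream of a start (right) in 10 classes of distance between the starts in bp; points are densities and bars exact 95% Poisson intervals. The left panel is at or near 0 up to 250 bp and near 0.9 per kb above 300 bp, while the right panel stays between 2.09 and 3.42 per kb.

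The empty stretch grew with the distance between the starts. Among pairs with a position 75 to 200 bp downstream of both starts and none between, the span from one to the other had a median of 335 bp at pairs 50 to 100 bp apart (27 pairs) and 392 bp at 100 to 150 bp (18 pairs). It was 431 bp at 150 to 200 bp (11 pairs), 490 bp at 200 to 250 bp (12 pairs) and 510 bp at 250 to 300 bp (13 pairs). Over the 85 such pairs up to 300 bp apart, the span ranged from 268 to 583 bp, with a median of 394 bp. Choosing positions in a fixed window ties the span to the distance, so this is a description of its size.

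A called +1 position was more frequent at pair starts than at isolated ones, and its distance from the start was similar in both. The window 75 to 200 bp downstream is used as the +1 window. In it, 610 of 1831 starts had a position, 33.3% (31.2 to 35.5%), against 3648 of 19040 autosomal protein-coding starts, 19.2%. Pair starts lay in CpG islands more often than isolated starts, 76.7% against 54.4%, so the test was made on starts inside islands. There, 1405 pair starts had 470 positions, or 2.65 per kb, and 8836 isolated starts had 1319, or 1.18 per kb, a ratio of 2.24. The difference was 1.48 per kb ± 0.568 (SD, n = 22 chromosomes) and was positive on 22 of 22 (permutation p = 1e-05, adjusted 4.5e-05). Divided by the density expected from GC content, the values were 2.53 and 1.92 observed over expected, so the sets were closer in proportion. The difference in this unit was 0.637 ± 0.711, positive on 18 of 22 chromosomes (permutation p = 0.00037, adjusted 0.000987). Over 12 alternatives the adjusted permutation p ran from 2.5e-05 to 0.001.

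The sharpest bin was the same in both sets. From 125 to 150 bp downstream, density was 5.92 per kb (5.14 to 6.78) at island pair starts and 2.14 per kb (1.95 to 2.34) at isolated island starts. Among starts with a position 50 to 250 bp downstream, the first one lay a median of 129 bp away at pairs (quartiles 114 and 141 bp, 458 starts) and 124 bp at isolated starts (106 and 141 bp, 1398 starts). It fell in the 75 bp from 100 bp downstream onwards at 83.2% of the former and 72.5% of the latter.

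A second position followed. In the 100 bp window that begins 75 bp beyond the +1 window, island pair starts had 1.17 per kb (166 positions) and isolated island starts 0.493 per kb (440 positions). The difference was 0.721 per kb ± 0.481 (SD, n = 22 chromosomes), positive on 22 of 22 (permutation p = 1e-05, adjusted 4.5e-05). Divided by the GC expectation, the values were 0.937 and 0.633 observed over expected, a difference of 0.357 that was positive on 18 of 22 chromosomes (permutation p = 2e-05, adjusted 0.00016, from 2.5e-05 to 0.333 over 11 alternatives). In the 75 bp between these windows the intervals of the sets overlapped, at 0.159 per kb (0.0927 to 0.255) and 0.168 per kb (0.139 to 0.202). Further into the gene the order was the other way round: from 1000 to 2000 bp downstream, island pair starts had 0.451 per kb (0.416 to 0.487) and isolated ones 0.713 per kb (0.695 to 0.731). That last difference was not tested over chromosomes.

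**Figure D3:**
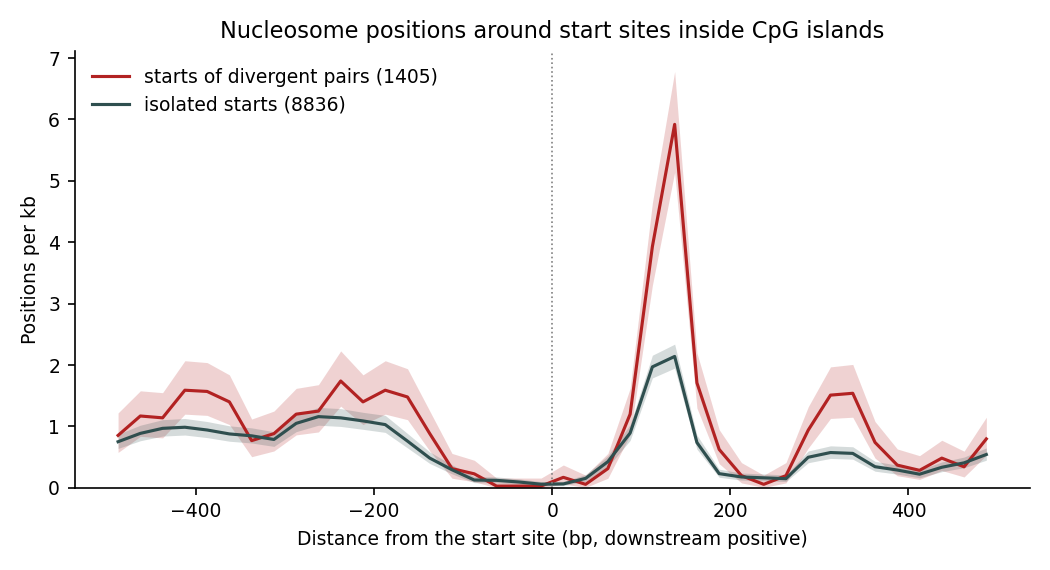
Positions per kb in 25 bp bins against the distance from the start site in bp, for 1405 starts of divergent pairs and 8836 isolated starts inside CpG islands; lines are densities and bands exact 95% Poisson intervals. The downstream peak at 125 to 150 bp reaches 5.92 per kb at pairs and 2.14 per kb at isolated starts. Upstream, bases shared by 2 starts of a close pair count for each.

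Sequence around the +1 window differed between the sets as well. Its median GC content was 67.5% at island pair starts and 73.0% at isolated island starts, and the island's downstream edge was a median of 382 bp and 617 bp away. Within classes of GC content, chosen after the data were seen, pair starts had the higher density in each of 5 classes. At 60 to 70% GC they had 3.25 per kb (2.87 to 3.68) against 1.74 per kb (1.59 to 1.89), and at 70 to 80% they had 1.92 (1.57 to 2.33) against 1.06 (0.976 to 1.16). Above 80% the intervals overlapped, at 0.952 (0.435 to 1.81) and 0.431 (0.346 to 0.531). By distance to the island's downstream edge, pair starts were higher in each of 4 classes. They had 3.11 per kb (2.68 to 3.58) against 1.60 (1.42 to 1.80) at 200 to 400 bp, and 2.07 (1.74 to 2.45) against 1.31 (1.21 to 1.41) at 400 to 800 bp. At 800 bp or more the intervals overlapped, at 1.17 (0.713 to 1.80) and 0.680 (0.597 to 0.771).

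The strand of the gene made no difference beyond the spread between chromosomes. Plus-strand genes had 2.93 positions per kb in the +1 window and minus-strand genes 2.76, a difference of 0.222 ± 1.74 (SD, n = 22 chromosomes), positive on 11 and negative on 10 (permutation p = 0.560, adjusted 0.560), which leaves room for a difference either way. Nor did the +1 density differ beyond the spread between chromosomes by distance: it was 2.99 per kb at pairs up to 300 bp apart and 2.59 at pairs further apart. That difference was -0.374 ± 1.19, negative on 16 of 22 chromosomes (permutation p = 0.154, adjusted 0.198). On the 15 chromosomes with at least 30 pairs it was -0.579, with an adjusted permutation p of 0.0462, the lowest over 10 alternatives (highest 0.982). The first position lay at similar places throughout, at a median of 130 bp for starts 0 to 100 bp apart and 127 bp for starts 500 to 1000 bp apart.

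A +1 position was found for both genes at 120 of 946 pairs, 12.7% (10.7 to 15%), for the plus-strand gene alone at 201, for the minus-strand gene alone at 185, and for neither at 440. The product of the shares of each strand, taken within chromosomes, was 10.9%. The excess was 2.29 percentage points ± 4.51 (SD, n = 22 chromosomes), positive on 15 and negative on 6 (permutation p = 0.0268, adjusted 0.0402). It did not pass the threshold without chromosome 9, at 2.17 points (adjusted permutation p = 0.0640), nor in a window of 50 to 250 bp, at 1.41 points (adjusted permutation p = 0.293), nor on chromosomes with at least 30 pairs, at 1.45 points (adjusted permutation p = 0.189). Over 7 alternatives the adjusted permutation p ran from 0.0116 to 0.293.

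**Figure D4:**
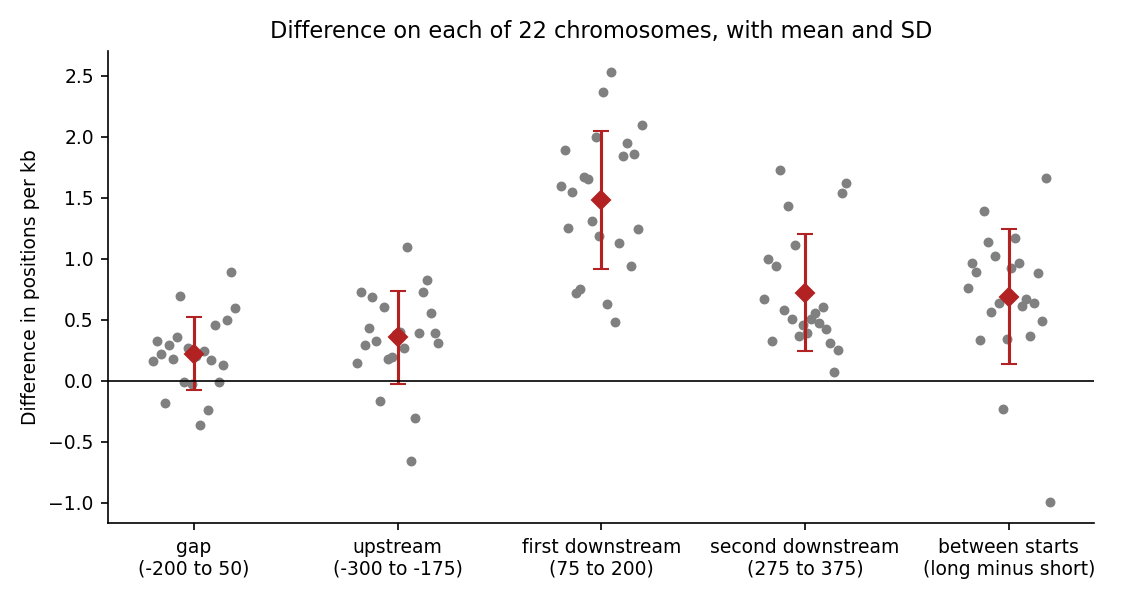
Difference in positions per kb on each of 22 chromosomes (grey points) with the mean and SD (red) for 5 comparisons: pair starts minus isolated starts inside islands in 4 windows given in bp from the start, and between the starts of pairs more than 300 bp apart minus pairs up to 300 bp. Both downstream windows are above 0 on 22 of 22 chromosomes, and the gap window is above 0 on 16.

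Upstream of a pair start, a window can reach into the partner gene. In the 125 bp window that begins 300 bp upstream, island pair starts had 1.42 per kb and isolated island starts 1.08, a difference of 0.354 per kb ± 0.385 (SD, n = 22 chromosomes), positive on 19 of 22 (permutation p = 0.00042, adjusted 0.000945). Of those 236 positions, 162 lay outside the interval between the starts, in the body of a gene of the pair. When sequence beyond the partner's start was left out, an alternative added after the data were seen, pair starts had 0.924 per kb. The difference was then -0.129 ± 0.713, above 0 on 9 chromosomes and below on 13 (permutation p = 0.404, adjusted 0.404, range over 12 alternatives 0.00012 to 0.404). Part of the sequence kept lies next to the partner's start, where few positions were found, while isolated starts kept the whole window. A lower density at pairs is thus partly built into this alternative.

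In the profile, the upstream maximum moved with the partner. In bins of 25 bp, it was 5.14 per kb in the bin that begins 200 bp upstream for starts up to 100 bp apart. For starts 100 to 200 bp apart it was 3.48 per kb, in the bin beginning 300 bp upstream, and for starts 200 to 300 bp apart it was 4.97 per kb, in the bin beginning 400 bp upstream. Starts 300 to 500 bp apart had maxima of 2.53 per kb both in the bin that ends 150 bp upstream, between the starts, and in the bin that ends 450 bp upstream.

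**Figure D5:**
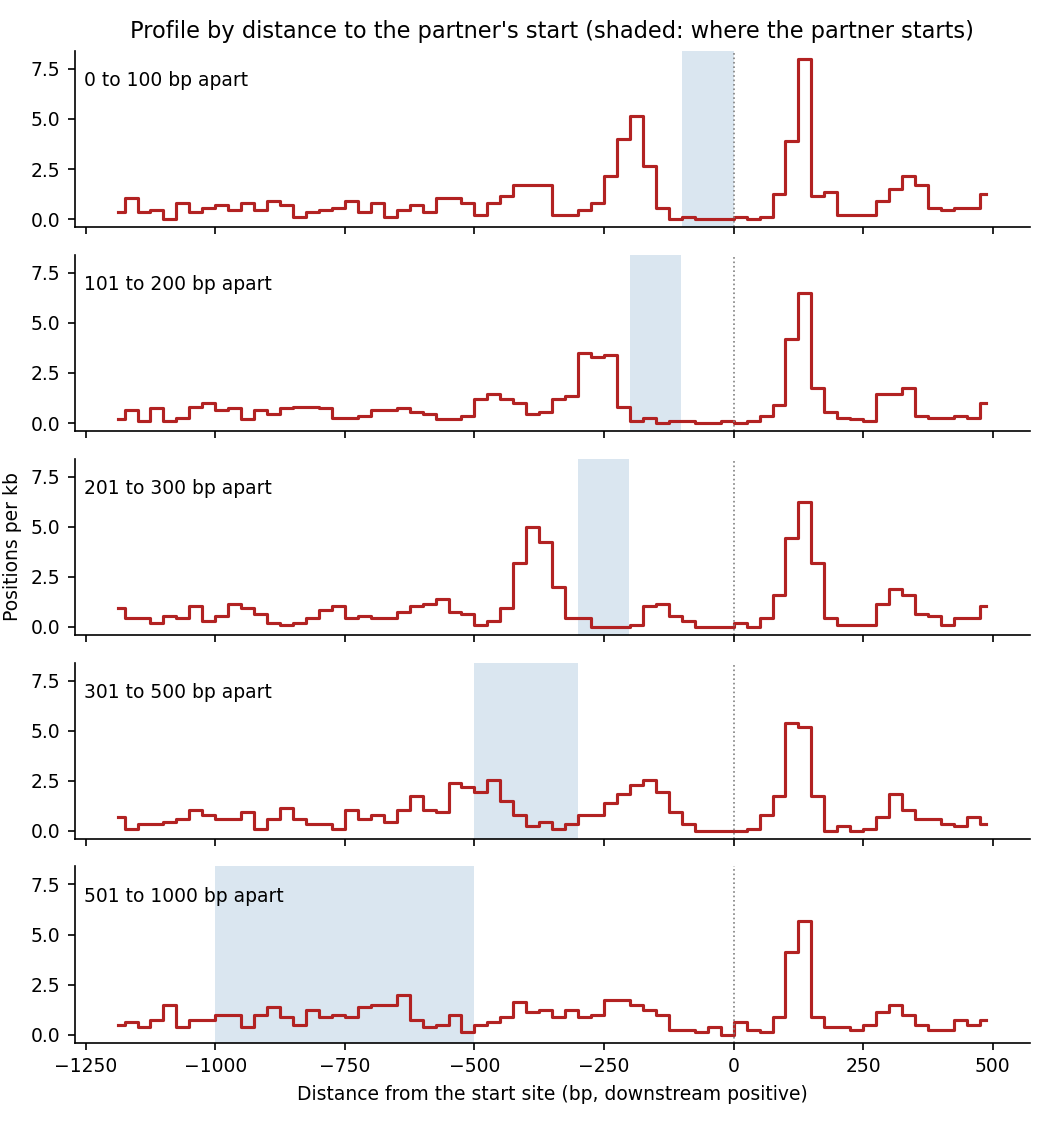
Positions per kb in 25 bp bins against the distance from the start site in bp, for pair starts in 5 classes of distance to the partner's start, which lies in the shaded range. The peak downstream of the start stays at 100 to 150 bp, while the upstream peak moves from -200 to -400 bp as the partner moves away in the first 3 classes.

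The window from -200 to +50 bp, used as the measure of the gap at single starts, held 0.523 per kb at island pair starts and 0.318 at isolated island starts. The difference was 0.220 per kb ± 0.30 (SD, n = 22 chromosomes), positive on 16 of 22 (permutation p = 0.00251, adjusted 0.00452), so by this window the gap of a pair was less empty. Of those 136 positions, 58 lay outside the interval between the starts. With sequence beyond the partner's start left out, the values were 0.372 and 0.318 per kb, a difference of 0.0785 (permutation p = 0.216, adjusted 0.324). As in the upstream window, a lower density at pairs is partly built into this alternative. Dividing by the GC expectation gave 0.0931 in observed over expected (permutation p = 0.210, adjusted 0.280), and the adjusted value ran from 0.0018 to 0.333 over 13 alternatives. In the 100 bp next to the start, 1405 island pair starts had 11 positions, 0.0783 per kb (0.0391 to 0.140), and 8836 isolated island starts had 89, 0.101 per kb (0.0809 to 0.124).

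Over all starts, inside islands or not, the gap window held 0.571 per kb at pairs and 0.666 at isolated starts. The difference was -0.0431 ± 0.238 (SD, n = 22 chromosomes), negative on 12 of 22 (permutation p = 0.406, adjusted 0.457). This result depended on where the window ended. Without sequence beyond the partner's start it was -0.233, negative on 20 of 22 chromosomes (permutation p = 0.00012, adjusted 0.00036), and from -150 to 0 bp it was -0.243, also negative on 20 (permutation p = 8e-05, adjusted 0.00016). The value of -0.233 is partly built in, for the reason given for the upstream window. Inside islands, the window from -150 to 0 bp gave 0.0957, positive on 13 of 22 chromosomes (permutation p = 0.106, adjusted 0.106). Isolated starts lay outside islands more often than pair starts. In this window isolated starts had 1.02 per kb outside islands and 0.196 inside. The part of island share in the values over all starts was not tested. For the difference over all starts, the adjusted value ran from 0.00016 to 0.782 over 12 alternatives.

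Outside islands, the gap was compared between 426 pair starts and 7417 isolated starts. In the window from -200 to +50 bp the difference did not pass: it was -0.185 per kb ± 0.771 (SD, n = 22 chromosomes), negative on 16 (permutation p = 0.278, adjusted 0.333). In the 100 bp next to the start, which was not tested, density was 0.0939 per kb (0.0256 to 0.240) at pairs and 1.04 per kb (0.967 to 1.12) at isolated starts. Windows were not merged here either. Pair starts there had 3.47 per kb (2.99 to 4.0) in the +1 window, with a position at 39.9% of starts, and isolated starts 1.83 per kb (1.74 to 1.92), with a position at 21.2%. The +1 difference was 1.79 ± 2.00 (SD, n = 22 chromosomes), positive on 20 (permutation p = 0.00025, adjusted 0.001 over 4 tests added after the data were seen). The sequence differed too: median GC content in the gap window was 60.2% at pairs and 54.6% at isolated starts, and the ratio of observed to expected CpG was 0.796 and 0.341. The part of composition in this difference was not tested. Islands and other starts did not differ beyond the spread between chromosomes in any of the 4 contrasts of pair and isolated starts (adjusted permutation p from 0.243 to 0.789).

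Windows at pair promoters held some short motifs more often than windows at isolated starts. Windows of 300 bp, centred on the midpoint of 459 pairs up to 300 bp apart with both starts in islands, or covering -250 to +49 bp of the 8836 isolated island starts, were searched on both strands for 7 motifs, whose matches may overlap. The ETS motif CCGGAAGT, bound by factors such as GABPA, was found in 20.5% of pair windows (17 to 24.4%) and in 6.43% of isolated windows (5.94 to 6.96%), against 6.26% of all 19040 autosomal starts. The motif GCGCATGCG of NRF1, a factor of nuclear genes for mitochondria, was found in 5.88% (4.07 to 8.42%) and 3.62% (3.25 to 4.03%), with 2.72% of all starts. The YY1 motif AAGATGGCG was found in 6.97% (4.98 to 9.68%) and 3.15% (2.80 to 3.53%), with 2.86% of all starts. The cAMP response element TGACGTCA was found in 6.54% (4.62 to 9.18%) and 3.21% (2.87 to 3.60%), with 2.70% of all starts. For the other 3 motifs the intervals overlapped. CCAAT was found in 38.3% and 33.1%, with 35.7% of all starts, and GGGCGG in 80.4% and 84.3%, with 61.7% of all starts. TATAAA was found in 4.58% and 4.33%, with 9.76% of all starts. A pair window holds the upstream sequence of 2 genes and, at close pairs, sequence downstream of both starts. An isolated window ends at +49 bp of 1 start. Shares of pair windows are thus not those of 1 promoter, and these differences were not tested.

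Groups of pairs are described by counts, with no test over a group. Of 124 starts in 64 pairs with a gene of the mitochondrial ribosome, respiratory chain or import machinery, 54 had a +1 position, 43.5% (35.1 to 52.3%), against 33.3% of all pair starts. No position lay between the starts at 57 of the 64, against 788 of all 946 pairs (83.3%). GGA3/MRPS7 (a trafficking adaptor and a mitochondrial ribosomal protein), 273 bp apart, was 1 of the other 7: its +1 positions lay 132 bp into GGA3 and 130 bp into MRPS7, and the position between lay 193 bp from the GGA3 start. At LRRC41/UQCRH, 82 bp apart, the +1 positions lay 124 and 141 bp away, UQCRH being a subunit of complex III.

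Pairs with a replication or repair gene had a +1 position at 19 of 44 starts, 43.2% (29.7 to 57.8%), and at 15 of 22 pairs for at least 1 gene, against 506 of all 946 pairs. AK6/RAD17, 298 bp apart, had 1 position 145 bp from the AK6 start, near the middle, and 1 at 100 bp into RAD17, a checkpoint clamp loader. Zinc finger pairs had a +1 position at 18 of 60 starts, 30% (19.9 to 42.5%). ARHGAP1/ZNF408, 412 bp apart, had all 3 kinds, at 131 bp, 124 bp and between the starts. ZNF668/ZNF646, 182 bp apart, had +1 positions at 127 and 122 bp and none between, and so had MRPL50/ZNF189, 233 bp apart, at 150 and 161 bp. DOCK4/ZNF277, 296 bp apart, had 1 only for ZNF277, at 114 bp.

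Histone pairs had the lowest share of the 4 groups. These 13 pairs, mostly an H2A and an H2B gene, which encode partners of the same nucleosome dimer, had starts 194 to 979 bp apart. A +1 position was found at 1 of 26 starts, 3.85% (0.682 to 18.9%), that of H2BC1, 156 bp downstream. Another histone start had a position 201 bp downstream, just past the +1 window. H2BC21/H2AC20 and H2AC25/H2BC26 on chromosome 1 had none within 500 bp. None of the 13 had a position between the starts, which also held for 83.3% of all pairs. Their flanks 1000 to 2000 bp downstream had 0.307 per kb (0.133 to 0.606), against 0.464 per kb (0.433 to 0.496) at all pair starts. A flank this low was not particular to histone pairs: mitochondrial pairs had 0.306 per kb (0.217 to 0.420). Replication and repair pairs had 0.386 per kb (0.225 to 0.618) and zinc finger pairs 0.466 per kb (0.310 to 0.674). Histone genes have near-identical copies, and how reads that match several of them were treated is not given in the sources used here, so these low values are uncertain. Of the 13 pairs, 11 lie on chromosome 6.

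Well-known divergent pairs were looked up by name. Of 12 looked up, 9 were members, and 1 more had overlapping 5' ends. A +1 position was found at 3 of their 18 starts, 16.7% (5.84 to 39.2%), and at neither gene in 7 of 9 pairs. Over all pairs the share of starts was 33.3%, inside that interval, and 440 of 946 pairs had neither. COL4A1/COL4A2 (chromosome 13, starts at 110307157 and 110307284), the basement membrane collagen pair, had its nearest positions 2983 and 5674 bp into the genes, and COL4A4/COL4A3, 419 bp apart, 286 and 3725 bp. HSPD1/HSPE1, the mitochondrial chaperonin and its co-chaperonin, had none within 500 bp of either start. The same held for PPAT/PAICS of purine synthesis and for PRKDC/MCM4 (chromosome 8), a repair kinase and a subunit of the replicative helicase. SURF1/SURF2, 63 bp apart, had none within 300 bp and 2 within 500 bp. NPAT/ATM, 429 bp apart, had 1, lying 115 bp into ATM, a kinase of the DNA damage response. HNRNPA2B1/CBX3, at 999 bp one of the widest, had 1 position between the starts, 764 bp from that of HNRNPA2B1. SARS2/MRPS12 had 1 +1 position in SARS2 and 2 in MRPS12. With a median of 1 position within 500 bp of the starts of a pair (quartiles 0 and 2) and none at 270 of 946 pairs (28.5%), a single empty pair says little, since the depth is unknown.

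Among 16 genes of the pigment epithelium looked up, only PMEL, a melanosome fibril protein, was in a pair. PMEL/CDK2 (chromosome 12, starts at 55966042 and 55966830), 788 bp apart and outside islands, had positions 363 and 551 bp from the PMEL start, between the starts, and 1 position 32 bp into PMEL.

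In all, 2 pairs had 3 positions between the starts and 19 had 2, and a few of these are given here as examples. ATP6V1G2/NFKBIL1 (a proton pump subunit and a protein of the major histocompatibility region), 1000 bp apart, had 3, at 32, 343 and 753 bp from the ATP6V1G2 start. GART/SON (a purine synthesis enzyme and a splicing protein), 921 bp apart, had 3 at 184, 204 and 614 bp. NOL9/TAS1R1, 794 bp apart, had them at 219 and 250 bp, and PREPL/CAMKMT, 453 bp apart, at 199 and 247 bp. WDR46/PFDN6, 362 bp apart and named for its 5 positions within 500 bp of the starts, had them at 174 and 213 bp. In these last 4 pairs, 2 neighbouring positions were closer than the DNA in 1 nucleosome is long. Such neighbours were few: merging positions under 100 bp apart lowered the count between the starts of the 345 long pairs from 164 to 158. CCDC115/IMP4 (a V-ATPase assembly factor and a ribosome biogenesis factor), 733 bp apart, had +1 positions at 130 and 134 bp and, between the starts, positions at 207 and 409 bp.

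The most positions within 500 bp of either start were 6, at EXOSC1/ZDHHC16 (an exosome subunit and a palmitoyltransferase), 169 bp apart, with 2 in each +1 window and none between. NPRL2/CYB561D2, 87 bp apart, had 5, with +1 positions at 100 and 141 bp and none between.

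Values were taken on either side of the limit of 1000 bp. The 28 pairs 900 to 1000 bp apart had 0.932 positions per kb between the starts and a +1 position at 12 of 55 starts. The 18 pairs 1000 to 1100 bp apart, just outside the rule, had 0.797 per kb and 8 of 34 starts. The pairs whose 5' ends overlap had a +1 position at 18 of 106 starts, 17% (11.0 to 25.3%).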

How the data were processed

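MNase-seq fragments of interphase ARPE-19 cells (2 batches, 1 condition) reached the files as 1 list of positions. Per the file header, the authors deposited chromosome names with start and end coordinates; each of the 2634347 entries is 1 bp long, with no height, score or p-value, and 4 of them are repeats. Bowtie2 and the builds hg38 and GRCh38 are named in the submitters' processing notes, without a role. The position caller, its threshold, fragment filters and any pooling of batches are not described in the sources used here. The name of the list carries a numeric range without a unit, which may be one of fragment lengths. The number of reads is unknown. All 35 sequence names occur in the hg38 reference used, and no position lay past a sequence's end or on an undetermined base.

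Start sites came from GENCODE 44. CpG islands were found in hg38 with a running score (+17 for a CpG, -1 for other bases), and a segment was kept if it was longer than 500 bp, its GC content was 55% or more, and its CpG ratio (observed to expected) exceeded 0.65. In the tests of the gap and the upstream window, windows of neighbouring starts were merged, so that no base counted more than once. Other windows and the profiles were not merged, so a base near 2 starts can count for each. The GC expectation gave each base the autosomal density of its GC class (2% wide, from 200 bp). Tests, alternatives and the named pairs (12 well-known pairs, 4 groups by symbol with up to 4 examples, the 5 pairs with most positions between the starts or within 500 bp, 16 pigment epithelium genes, 6 sequences) followed fixed rules. Of the examples this gives, 1 is not reported here. The members, windows and lists were chosen with earlier results of these data known. The density test was tested on simulated data. Python 3.11.15, numpy 2.4.6, scipy 1.17.1, pandas 2.3.3, numba 0.67.0 and matplotlib 3.10.9 were used.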

Additional observations from a re-analysis of the deposited data

Results flagged for a closer look

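Chromosome X was outside the comparisons. Its 26 divergent pairs had 13 positions in the window 75 to 200 bp downstream of 52 starts. A position was found at 25% of these starts (95% Wilson interval 15.2 to 38.2%), against 33.3% at the autosomal pairs. The window from -200 to +50 bp of the same starts held 2 positions.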

How the results depend on the processing

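Over 9 results, 95 alternative values were computed; 79 had the same direction and the same call. The first and second downstream positions inside islands and the density between starts by distance did so under every alternative that kept to islands or to these pairs; outside islands, the second downstream difference was 0.535 and the first upstream one 0.491, neither past the threshold. The gap difference inside islands no longer passed with the GC expectation (0.0931), from -150 to 0 bp (0.0957) or without sequence beyond the partner's start (0.0785), and reversed outside islands without passing (-0.185, adjusted p 0.333). The gap difference over all starts passed on chromosomes with at least 30 pairs (-0.105), against starts isolated from genes of any type (-0.114), from -150 to 0 bp (-0.243) and without sequence beyond the partner's start (-0.233), and reversed, unsupported by the test, with neighbours under 100 bp apart merged (0.0142). The first upstream difference reversed without sequence beyond the partner's start (-0.129), which leaves 79.0 of 166 kb at pair starts. Part of what is left lies next to the partner's start, so a lower density at pairs is partly built in. The excess of pairs with both +1 positions did not pass without chromosome 9 (2.17), on chromosomes with at least 30 pairs (1.45) or from 50 to 250 bp (1.41). The +1 difference by distance passed on those chromosomes (-0.579). The cause was not tested. The alternatives on starts outside islands, on the partner's sequence and on overlapping 5' ends were chosen after the data were seen. No paired analysis was possible because the list does not tell the 2 batches apart, and leaving out a batch was not possible for the same reason.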
